A study of Mus musculus with 6 samples.

Results

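The 46 genes described here encode the machinery that copies DNA and the enzymes that supply its pyrimidine nucleotides. They were chosen by symbol as a functional group, with earlier results of these data known. Matched to the count table by Ensembl gene identifier without its version, they make up 46 of the 52550 genes in that table. The study sequenced RNA of CD3+ T cells from the spleen of WT mice, activated for 24 h in culture with antibodies to CD3 and CD28, which engage the T cell receptor (TCR) and its costimulatory receptor. In 3 samples the cells were activated without further addition (TCR alone), and in 3 samples DMGV was present at 100 ng/ml (TCR+DMGV). The labels call the samples biological replicates and name the added molecule DMGV (dimethylguanidino valeric acid), a product of methylated arginines. The study's supplementary legend names the material added at the same dose LNY1, a factor purified from medium conditioned by fibroblasts, so the values below are those of the samples labelled DMGV. The study's methods describe magnetic isolation of the T cells from mice of 6 to 8 weeks, and no unactivated sample was analysed here. The question put to these genes is whether their RNA differed between activated T cells with and without DMGV.

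Before a chromosome is copied, the origin recognition complex (ORC) with Cdc6 and Cdt1 loads rings of Mcm2 to Mcm7 on its origins. At the start of S phase, Cdc45 and the GINS complex turn these rings into working helicases, and polymerases alpha, delta and epsilon then extend the new strands with the sliding clamp PCNA. Building blocks come from ribonucleotide reductase and, for thymidine nucleotides, from thymidylate synthase and thymidine kinase, while the pyrimidine ring itself is made de novo by Cad, Dhodh and Umps. A resting T cell holds little of this machinery and assembles it in the first day after activation, in large part through E2F transcription factors.

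Summed counts per sample ran from 37758725 to 43718867. Among the 14786 genes that passed the expression filter of edgeR, the first principal component of log2 CPM (counts scaled by TMM to a common library size) held 32.2% of the variance. It set TCR alone replicate 3 and TCR+DMGV replicate 1, with scores of 42.1 and 42.9, apart from the other 4 samples, whose scores lay between -34.9 and -10.5. Values that moved with these 2 libraries are therefore also given without them. The summed level of 13 T cell markers was 3754 to 4049 CPM in TCR alone and 4031 to 4258 CPM in TCR+DMGV. That of 12 B cell markers was 249.5 to 274.9 CPM and 250.3 to 261.0 CPM, of 12 myeloid markers 9.29 to 13.3 CPM and 9.39 to 11.3 CPM, of 7 NK markers 154.7 to 170.5 CPM and 175.8 to 184.9 CPM, and of 8 erythroid markers 4.88 to 5.56 CPM and 2.72 to 4.92 CPM. Most of the B cell sum was Ighm, and 4 myeloid markers (Cd14, S100a8, S100a9 and Ly6g) were at 0 counts in every sample. The T cell and NK sums were higher in TCR+DMGV with little or no overlap between the groups, the erythroid sum was lower with little overlap, and their part in the results below was not tested.

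Some of these genes carry E2F-type letters next to their start. RefSeq promoters (GRCm38.p6, from 250 bases before to 50 bases after the start) were given for 38 of the 46 genes. The letters TTTCCCGC, TTTCGCGC, TTTGCCGC or TTTGGCGC, read on either strand, stood in 13 of these 38 promoters (34.2%), against 704 of 27025 promoters in the whole table (2.61%). CCAAT, on either strand, stood in 57.9% of the 38 and in 41.1% of all promoters, and the GC box GGGCGG in 76.3% and 38.2%. Promoters of the neighbouring lists described below were read in the same way. The E2F-type share was 45% for G1/S control, 26.7% for other replication factors, 5.56% for mitosis and 0% for other pyrimidine nucleotide genes. In that order, the CCAAT share was 60%, 43.3%, 83.3% and 34.8%, and the GC box share 95%, 83.3%, 83.3% and 73.9%. The letters were therefore not particular to the 46 genes. A match of letters is a description and not a measured binding site. Windows of 30 bases from the licensing and helicase genes are printed to show the shared letters, with the E2F-type match in capitals, each on the strand of its gene.

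Mcm3 (chr1:20820275-20820304, minus strand): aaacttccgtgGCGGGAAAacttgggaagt
Mcm5 (chr8:75109349-75109378, plus strand): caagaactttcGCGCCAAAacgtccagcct
Mcm6 (chr1:128359734-128359763, minus strand): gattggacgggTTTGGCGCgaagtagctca
Mcm7 (chr5:138171849-138171878, minus strand): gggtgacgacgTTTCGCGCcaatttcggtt
Orc1 (chr4:108579416-108579445, plus strand): ttcggttagtgGCGCGAAAagttttctcct
Cdc6 (chr11:98908002-98908031, plus strand): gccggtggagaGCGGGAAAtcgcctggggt
Cdt1 (chr8:122568035-122568064, plus strand): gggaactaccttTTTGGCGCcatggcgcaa

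The other 6 promoters with a match were those of Gins3, Rfc3, Pola1, Pold1, Pole2 and Lig1. Rrm2, Tyms and Tk1 had the smallest p of the 46 genes (below), and their promoters held none of these exact letters. The search allowed no mismatch, so a promoter without a match may still hold an E2F site. The 150 bases upstream of the RefSeq starts of Rrm2, Tyms and Tk1 are shown for comparison, with CCAAT and GGGCGG in capitals where they occur. For Rrm2 and Tk1 the RefSeq start lies inside the gene coordinates given below, so the end of each stretch does too. In Tk1 this end holds the marked GGGCGG.

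Rrm2 (chr12:24708104-24708253, plus strand): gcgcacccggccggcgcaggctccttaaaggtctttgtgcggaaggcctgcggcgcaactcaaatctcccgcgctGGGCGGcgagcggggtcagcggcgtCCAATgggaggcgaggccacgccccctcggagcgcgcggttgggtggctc
Tyms (chr5:30073626-30073775, minus strand): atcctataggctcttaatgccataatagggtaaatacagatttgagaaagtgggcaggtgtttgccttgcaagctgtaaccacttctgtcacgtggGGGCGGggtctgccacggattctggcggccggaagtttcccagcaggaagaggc
Tk1 (chr11:117826015-117826164, minus strand): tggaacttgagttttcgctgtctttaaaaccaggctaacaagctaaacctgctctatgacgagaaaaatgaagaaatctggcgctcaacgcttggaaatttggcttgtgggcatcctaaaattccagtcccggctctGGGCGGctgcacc

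All 46 genes were expressed well enough to be tested, with at least 729 counts in every sample. Levels between genes are compared here in FPKM, the authors' values scaled to gene length, as means over the 6 samples. Pcna, the sliding clamp, stood highest at 295 FPKM. The MCM helicase subunits followed, from Mcm3 at 228 FPKM, Mcm6 at 195 FPKM, Mcm4 at 175 FPKM and Mcm5 at 173 FPKM down to Mcm7 at 123 FPKM and Mcm2 at 91.7 FPKM. Umps, the last enzyme of UMP synthesis, came next at 88.9 FPKM, then Rrm2, the small subunit of ribonucleotide reductase, at 81.7 FPKM. At the lower end were Tyms at 8.45 FPKM, Gins3 at 6.64 FPKM, Dhodh at 5.91 FPKM and Tk1 at 5.10 FPKM. Tyms and Tk1, which both make thymidine nucleotides, thus stood at or near the bottom of the group on this scale.

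**Figure D1:**
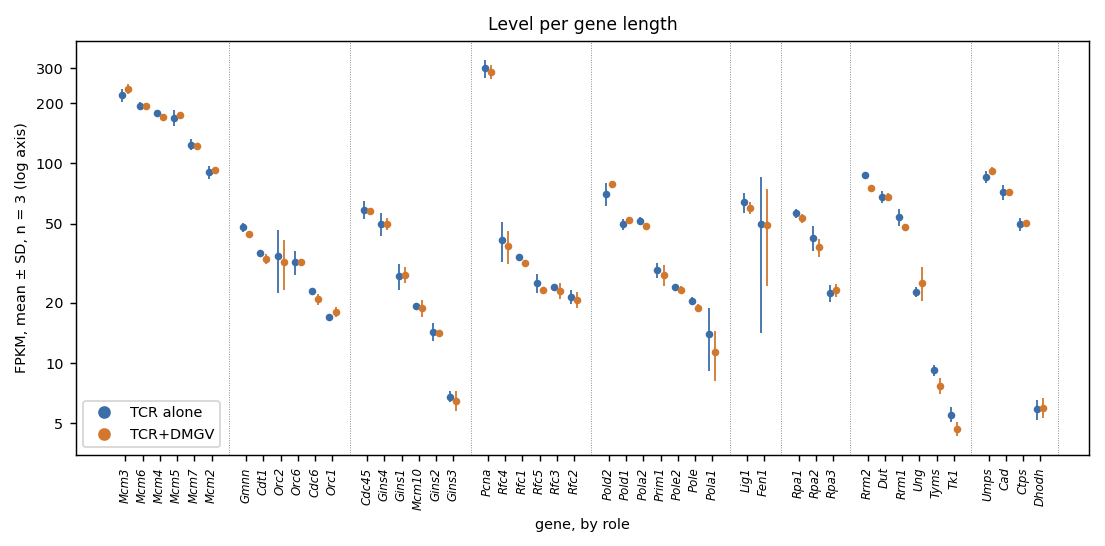
Level of each of the 46 genes per gene length (FPKM, log axis), grouped by role and ordered within a role, with points for the mean of TCR alone (blue) and TCR+DMGV (orange) and bars for the SD over 3 samples. The 2 points of most genes lie close together, and Fen1, Orc2 and Pola1 have the widest bars.

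No gene of the 46 passed an adjusted p of 0.05 between TCR+DMGV and TCR alone. The adjusted p was 0.999 for each of them by edgeR's quasi-likelihood test with Benjamini-Hochberg adjustment, which called 2 of 14786 genes (0.0135%). At an unadjusted p under 0.05, Rrm2 and Tyms were lower, that is 2 of 46, against 230 of 14786 tested genes (1.56%), and 0 of 46 were higher, against 241 (1.63%). DESeq2 gave the same counts of 0, 2 and 0 for these 3 thresholds. The log2 fold change was below 0 for 28 of the 46, against 49.4% of all tested genes, with a median of -0.027 against 0.0024 over all tested genes. The 3 values of TCR+DMGV all lay below the 3 of TCR alone for 8 genes, against 3.94% of all tested genes, and all above for 1 gene, against 4.92%. With another scaling the first count was 5 for DESeq2 (3.44% of all genes), where Cdc6, Cdt1 and Pola2 lost their separation, and 6 for RLE size factors (4.15%), where Cdc6 and Pola2 lost it. It was also 6 for library size alone (4.23%) and for FPKM (3.64%), where Cdc6, Cdt1, Pola2 and Pole were replaced by Gmnn and Rrm1, so that Rfc1, Rrm2, Tyms and Tk1 stood apart under each of these scalings. In RNA from a mixed culture, a smaller share of cells in S phase and less RNA per cell cannot be told apart.

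For most of the genes, the fit bounded the change at 1.5-fold, with intervals not adjusted for the number of genes. Smaller changes could still be hidden. The 95% interval of the fold change lay within a 1.5-fold change in either direction for 42 of the 46, against 54.1% of all tested genes, and the intervals of Orc2, Rfc4, Pola1 and Fen1 were wider. The counts shifted with single libraries. Leaving out TCR alone replicate 1 gave a median of -0.077 and 13 genes lower in every sample (9.64% of all tested genes), and leaving out TCR+DMGV replicate 1 gave a median of -0.00092. The number higher in every sample was 10 without TCR alone replicate 3 (14.6% of all tested genes). It was 3 without TCR alone replicate 2 (8.79%) or without TCR+DMGV replicate 1 (8.46%), 2 (10.4%) or 3 (8.63%). Groups of 2 against 3 separate more easily than groups of 3 against 3.

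**Figure D2:**
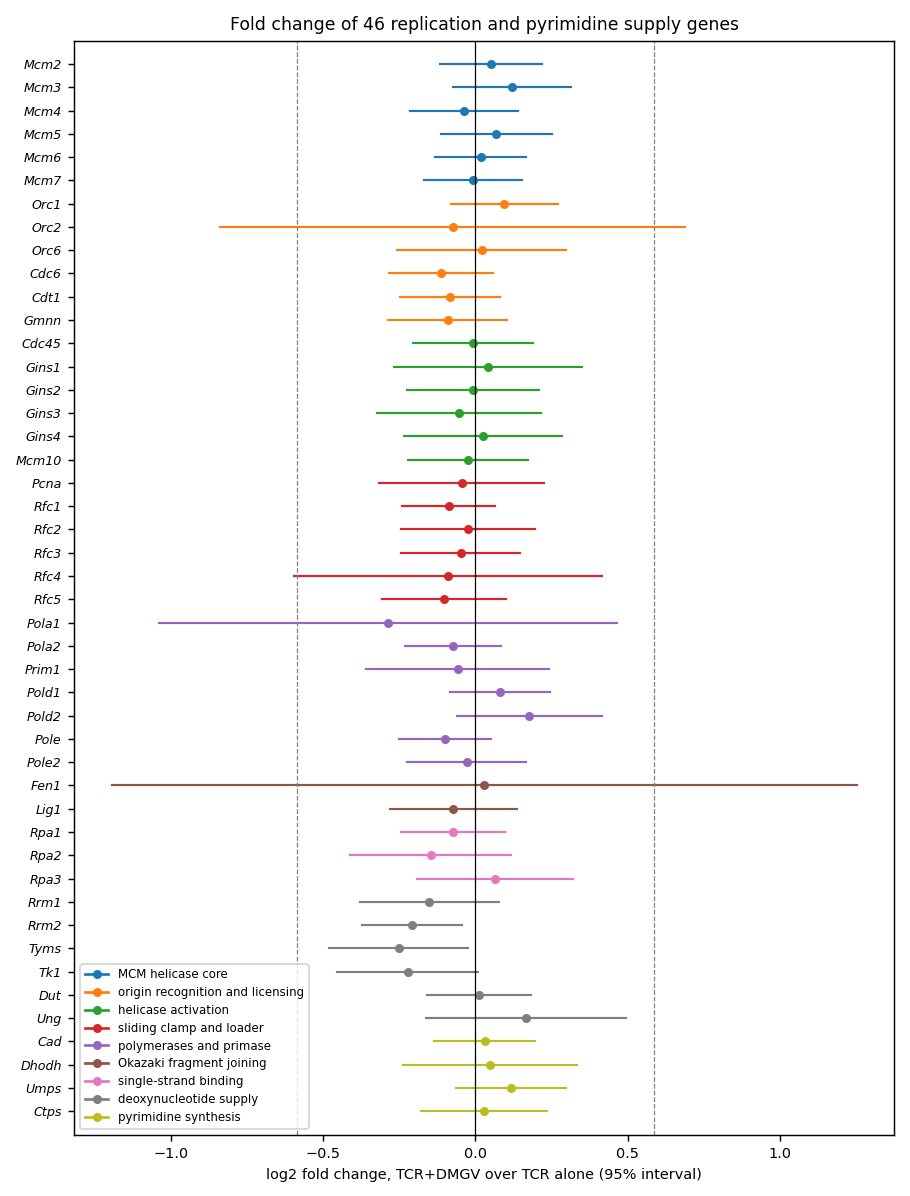
Log2 fold change of TCR+DMGV over TCR alone for each of the 46 genes (points) with its 95% interval from edgeR (lines), coloured by role; the dashed lines mark a 1.5-fold change. Only the intervals of Rrm2 and Tyms lie wholly below 0, none lies wholly above 0, and Orc2, Rfc4, Pola1 and Fen1 reach past a dashed line.

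The lowest group by role was the supply of deoxynucleotides. Rrm2, Tyms and Tk1 were each lower in all 3 TCR+DMGV samples than in any TCR alone sample, by 13.5%, 16.0% and 14.3%, without passing the adjusted threshold. Rrm2 (chr12:24708241-24714146) encodes the small subunit of ribonucleotide reductase, the enzyme that turns ribonucleotides into deoxynucleotides. Its level was 276.3, 285.6 and 257.2 CPM in TCR alone replicates 1 to 3 and 231.9, 238.1 and 238.0 CPM in TCR+DMGV replicates 1 to 3. The TCR+DMGV samples lay close together, below the lowest TCR alone sample. The log2 fold change was -0.21 (SE 0.070, edgeR unadjusted p = 0.019, adjusted p = 0.999).

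Tyms (chr5:30058202-30073617), thymidylate synthase, makes the thymidine nucleotide from dUMP. It measured 58.2, 67.0 and 63.6 CPM in TCR alone and 56.6, 49.0 and 53.0 CPM in TCR+DMGV. The gap between the groups was narrow, from 56.6 to 58.2 CPM, and the log2 fold change was -0.25 (SE 0.097, edgeR unadjusted p = 0.035, adjusted p = 0.999). Its processed pseudogene Tyms-ps held 0 to 6 counts per sample. Tk1 (chr11:117815526-117826092), the thymidine kinase that salvages thymidine in S phase, measured 31.2, 30.7 and 34.5 CPM in TCR alone and 28.7, 25.5 and 28.4 CPM in TCR+DMGV. Its log2 fold change was -0.22 (SE 0.099, edgeR unadjusted p = 0.057, adjusted p = 0.999), and the groups again did not overlap. Tk1 shares its locus with the opposite-strand genes Afmid and Gm20708, which held 53 to 265 and 12 to 132 counts per sample, and the strand setting of the counting is not given in the sources used here.

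Rrm1, the large subunit of the same reductase, was lower on average but not in every sample. It measured 660.3, 748.2 and 590.2 CPM in TCR alone and 573.7, 611.8 and 613.2 CPM in TCR+DMGV, so TCR alone replicate 3 lay inside the range of the other group (log2 fold change -0.15, SE 0.097). Without TCR alone replicate 2 it stood at -0.064, and without TCR alone replicate 3 at -0.23. Dut and Ung, which remove dUTP and uracil so that uracil does not stay in DNA, had log2 fold changes of 0.011 (SE 0.073) and 0.17 (SE 0.14). Over the 6 genes of this role the median log2 fold change was -0.18. Without TCR alone replicate 3 and TCR+DMGV replicate 1, the log2 fold changes of Rrm2, Tyms, Tk1 and Rrm1 were -0.24, -0.29, -0.20 and -0.20. Their sign was the same in all 15 alternative fits, all of which reuse these libraries. The groups of Rrm2, Tyms and Tk1 do not overlap, so leaving samples out could hardly have reversed them. The unchanged sign therefore adds no support. The unadjusted p of Rrm2 and of Tyms was under 0.05 in 10 of those 15. Of the fits with 1 sample left out, it passed over 0.05 for both without TCR alone replicate 2, TCR+DMGV replicate 2 or TCR+DMGV replicate 3, for Rrm2 also without TCR+DMGV replicate 1 and for Tyms also without TCR alone replicate 3. With 1 sample left out, edgeR's unadjusted p ran from 0.0083 to 0.064 for Rrm2 and from 0.019 to 0.13 for Tyms.

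**Figure D3:**
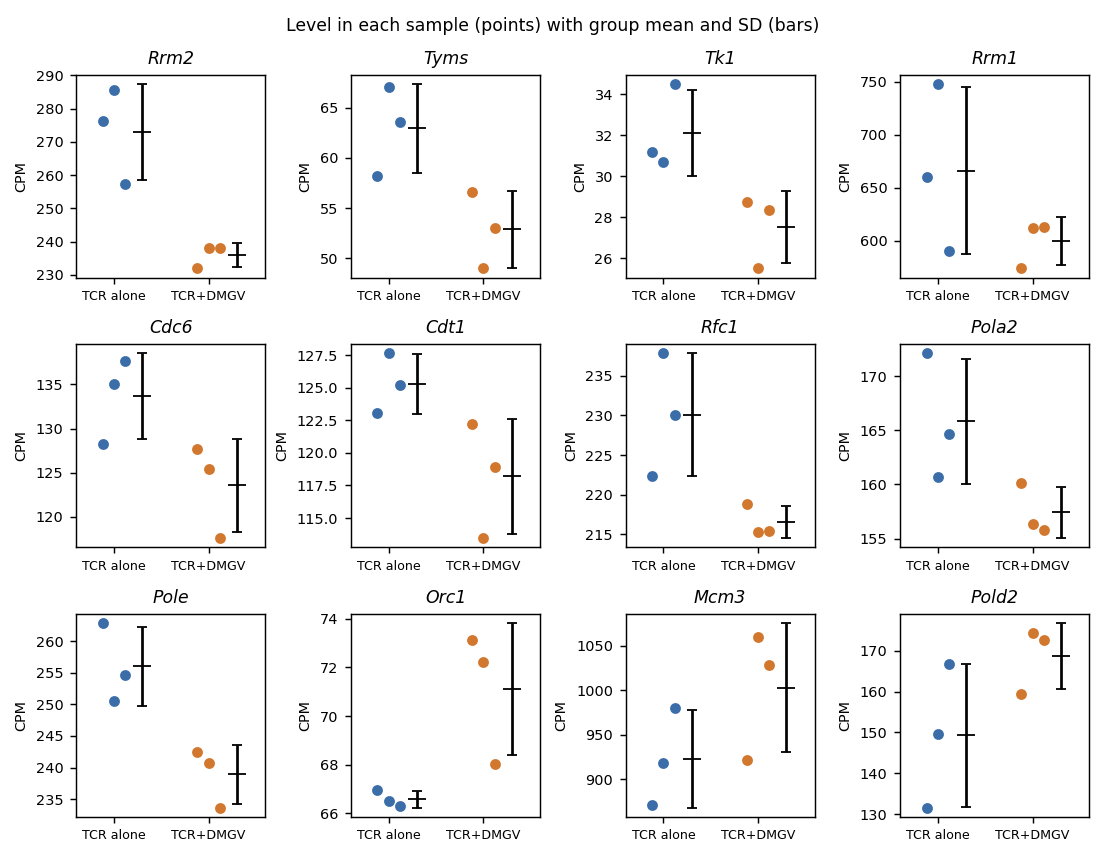
Level in each sample (points, CPM) of 12 genes in TCR alone (blue) and TCR+DMGV (orange), with bars for the group mean and SD over 3 samples; each axis covers the gene's own range and does not start at 0. With TMM scaling, Rrm2, Tyms, Tk1, Cdc6, Cdt1, Rfc1, Pola2 and Pole lie lower in all 3 TCR+DMGV samples and Orc1 higher, while Rrm1, Mcm3 and Pold2 overlap.

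The 4 genes of de novo pyrimidine synthesis had log2 fold changes just above 0, and their difference from the deoxynucleotide genes was not tested. Cad carries the first 3 steps of the pathway on 1 protein, and it measured 646.3, 622.3 and 699.6 CPM in TCR alone and 667.1, 684.6 and 657.3 CPM in TCR+DMGV (log2 fold change 0.030, SE 0.071). Dhodh, the mitochondrial dehydrogenase of the next step, measured 38.0, 40.4 and 45.95 CPM against 42.3, 48.0 and 38.2 CPM (0.048, SE 0.12). Umps, which completes UMP, measured 310.7, 338.7 and 352.5 CPM against 364.4, 345.8 and 376.8 CPM (0.12, SE 0.077). Only TCR+DMGV replicate 2 of the treated samples lay inside the TCR alone range of Umps. Ctps, which makes CTP from UTP, measured 174.7, 205.6 and 172.7 CPM against 186.2, 191.2 and 186.4 CPM (0.028, SE 0.087). The log2 fold change was above 0 for 4 of 4 genes and under its own SE for Cad, Dhodh and Ctps, and none of the 4 passed the unadjusted threshold. Umps kept its sign whichever sample was left out. Cad stood at -0.011 without TCR alone replicate 2, Dhodh at -0.028 without TCR alone replicate 1 and -0.042 without TCR+DMGV replicate 2, and Ctps at -0.026 without TCR alone replicate 1 and -0.011 without TCR alone replicate 3.

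The MCM helicase core, which unwinds the DNA, was measured at high depth and stood nearly level between the groups. Mcm2 had 655.9, 710.3 and 746.5 CPM in TCR alone and 736.9, 726.4 and 725.6 CPM in TCR+DMGV. Mcm3 had 870.6, 918.4 and 980.3 CPM against 921.1, 1060 and 1028 CPM, the largest difference of the 6 (log2 fold change 0.12, SE 0.083). Its interval ran from -0.074 to 0.31, and its value was 0.062 without TCR alone replicate 1. Mcm4 had 731.4, 744.5 and 671.3 CPM against 658.6, 731.4 and 701.9 CPM. Mcm5 had 694.4, 762.6 and 813.2 CPM against 796.3, 778.6 and 805.4 CPM. In both genes the groups overlapped. Mcm6 had 974.7, 1041 and 1037 CPM against 1007, 1042 and 1040 CPM, and Mcm7 583.2, 613.0 and 646.2 CPM against 614.4, 621.0 and 595.8 CPM. The log2 fold changes of Mcm2, Mcm4, Mcm5, Mcm6 and Mcm7 were 0.051, -0.038, 0.068, 0.017 and -0.0088, each below its SE. All 6 intervals lay within a 1.5-fold change, and Mcm3 and Mcm4 kept their sign in all 15 alternatives. Without TCR alone replicate 1, Mcm2, Mcm5 and Mcm6 stood at -0.015, -0.0072 and -0.030, and Mcm7 stood at 0.035 without TCR alone replicate 3 and at 0.0085 without TCR+DMGV replicate 3. Mcm7 overlaps Cops6 and Ap4m1 on the opposite strand, with 4825 to 6617 and 890 to 1060 counts.

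Among the genes that mark and license origins, Cdc6 and Cdt1 were lower in every TCR+DMGV sample and Orc1 was higher, with TMM scaling. Cdc6, the ATPase that helps load the MCM rings, had 128.2, 135.1 and 137.7 CPM in TCR alone and 127.7, 125.4 and 117.6 CPM in TCR+DMGV. The groups were separated by less than 1 CPM (log2 fold change -0.11, SE 0.073). Cdt1, its partner in loading, had 123.0, 127.6 and 125.2 CPM against 122.2, 113.5 and 118.9 CPM (-0.084, SE 0.069). Orc1, the largest ORC subunit, had 67.0, 66.5 and 66.3 CPM against 73.1, 72.2 and 68.0 CPM (0.095, SE 0.075), the only gene of the 46 with all 3 TCR+DMGV values higher. Gmnn, the inhibitor that binds Cdt1, had a log2 fold change of -0.092 (SE 0.083), and Orc6 of 0.021 (SE 0.12). Orc6 overlaps Vps35 on the opposite strand, with 4541 to 9125 counts. The separation of Cdc6 was lost with DESeq2 scaling, RLE size factors, library size alone or FPKM. That of Cdt1 was lost with DESeq2 scaling, library size alone or FPKM, and that of Orc1 with library size alone or FPKM.

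Helicase activation showed no gene with separate groups. The log2 fold changes of Cdc45, Gins1, Gins2, Gins3, Gins4 and Mcm10 lay between -0.054 and 0.041, each within its SE, with 2 of 6 above 0. Gins3, of the smallest p in this role, had 21.6, 21.5 and 18.7 CPM in TCR alone and 21.9, 19.3 and 18.4 CPM in TCR+DMGV, and its log2 fold change was -0.054 (SE 0.11), or -0.19 (SE 0.12) without the 2 libraries that stood apart.

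The sliding clamp and its loader were lower on average for 6 of 6 genes, by little. Pcna, the ring that tethers polymerases to DNA, had 749.1, 924.9 and 751.3 CPM in TCR alone and 702.0, 785.4 and 863.1 CPM in TCR+DMGV, and its log2 fold change of -0.045 (SE 0.12) turned positive without TCR alone replicate 2 (0.059) or TCR+DMGV replicate 1 (0.025). Its processed pseudogene Pcna-ps2 held 375 to 651 counts, and reads of the 2 copies may be split. Rfc1, the large subunit of the clamp loader, had 222.3, 237.8 and 230.1 CPM against 218.9, 215.3 and 215.5 CPM, with no overlap (-0.087, SE 0.065). Rfc2 to Rfc5 had log2 fold changes from -0.10 to -0.025. With 1 sample left out, Rfc2, Rfc3 and Rfc4 reached up to 0.040, 0.014 and 0.091, while Rfc1 and Rfc5 stayed negative.

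Of the polymerases, the catalytic subunit Pole and the alpha subunit Pola2 were lower in every TCR+DMGV sample with TMM scaling. Pole, the leading-strand enzyme, had 262.9, 250.5 and 254.6 CPM in TCR alone and 242.5, 240.7 and 233.7 CPM in TCR+DMGV (log2 fold change -0.099, SE 0.064). Pola2, a regulatory subunit of the polymerase that starts each fragment, had 172.1, 160.7 and 164.7 CPM against 160.1, 156.4 and 155.8 CPM (-0.075, SE 0.067). In Pola2 the groups were again less than 1 CPM apart. Its separation was lost with DESeq2 scaling, RLE size factors, library size alone or FPKM, and that of Pole with library size alone or FPKM. Pold2, an accessory subunit of the lagging-strand polymerase delta, had 131.6, 149.6 and 166.7 CPM against 159.4, 174.2 and 172.5 CPM. This was the largest log2 fold change above 0 among the 46 genes, 0.18 (SE 0.10, edgeR unadjusted p = 0.12), with TCR alone replicate 3 inside the TCR+DMGV range. It stood at 0.076 without TCR alone replicate 1 and at 0.27 without TCR alone replicate 3. Its catalytic partner Pold1 stood at 0.081 (SE 0.070), Prim1, the primase, at -0.058 (SE 0.13) and Pole2 at -0.029 (SE 0.083). Lig1, which seals the finished fragments, had 290.4, 285.2 and 337.6 CPM against 301.7, 291.2 and 275.1 CPM (-0.073, SE 0.089, and 0.013 without TCR alone replicate 3). Rpa2, a subunit of the complex that coats single-stranded DNA, had 128.8, 134.9 and 163.2 CPM against 138.2, 129.7 and 117.5 CPM (-0.15, SE 0.11). Its value was -0.23 without TCR alone replicate 1, -0.032 without TCR alone replicate 3 and -0.088 without TCR+DMGV replicate 3. Rpa1 and Rpa3 of the same complex stood at -0.073 (SE 0.073) and 0.063 (SE 0.11).

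**Figure D4:**
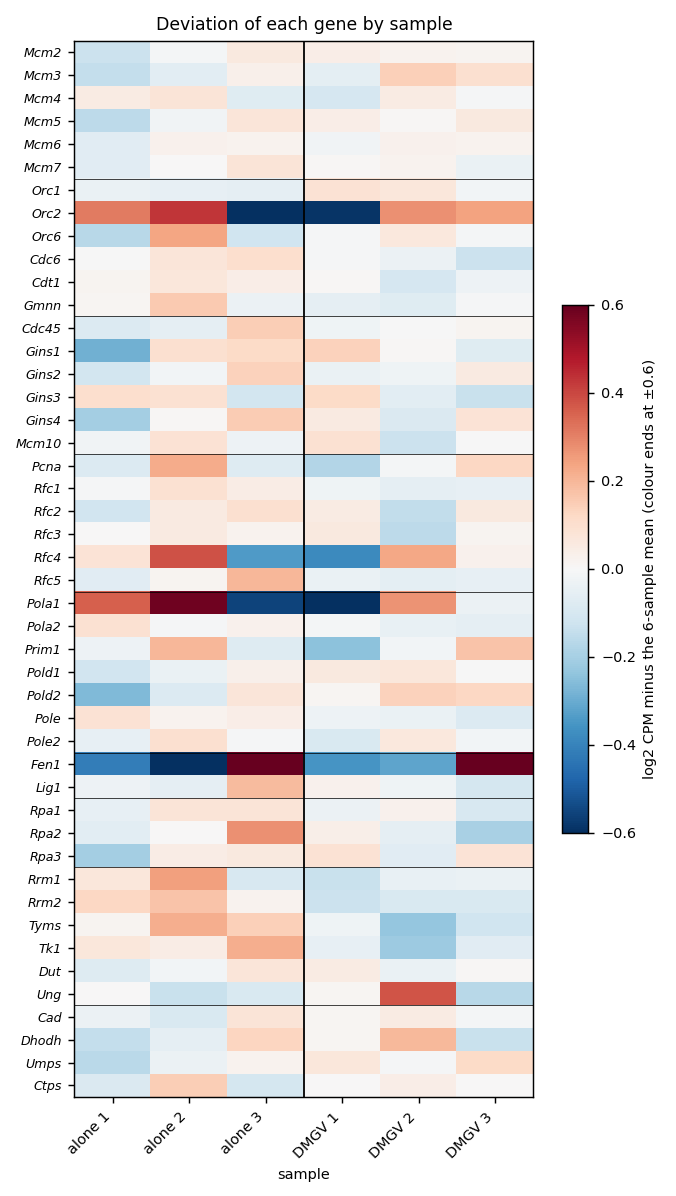
Deviation of each gene's log2 CPM in each sample from its mean over the 6 samples, with genes in rows by role and samples in columns, TCR alone on the left of the vertical line; the colours end at 0.6 in either direction. Orc2, Rfc4 and Pola1 are low in TCR alone replicate 3 and TCR+DMGV replicate 1, and Fen1 is high in TCR alone replicate 3 and TCR+DMGV replicate 3.

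Of the 4 genes with wide intervals, 3 followed the 2 libraries that stood apart. Pola1, the catalytic subunit of polymerase alpha, had 154.1, 180.0 and 81.7 CPM in TCR alone and 78.2, 145.0 and 117.5 CPM in TCR+DMGV. Orc2 had 172.1, 186.9 and 87.4 CPM against 92.4, 167.6 and 163.9 CPM. Rfc4 had 71.9, 88.6 and 53.7 CPM against 52.2, 79.8 and 69.2 CPM. On the opposite strand, Rfc4 overlaps Eif4a2, with 4885 to 6539 counts, and Orc2 overlaps Nif3l1, with 2373 to 3204 counts. In TCR alone replicate 3 and TCR+DMGV replicate 1, Eif4a2 had 118.0 and 130.4 CPM, against 151.9 to 165.0 CPM in the others. Nif3l1 had 67.6 and 61.6 CPM there, against 62.5 to 77.3 CPM. The part of these overlaps was not tested. The log2 fold changes of Pola1, Orc2 and Rfc4 were -0.29 (SE 0.32), -0.075 (SE 0.33) and -0.090 (SE 0.22), and that of Pola1 was the lowest of the 46 genes. In each, the lowest value of either group came from TCR alone replicate 3 or TCR+DMGV replicate 1, and the mean log2 CPM of these 2 libraries differed from that of the other 4 by -0.88, -0.94 and -0.54. The transcripts of these 3 genes had a GC content of 41.5%, 44.4% and 44.6%. Others of like GC content differed less between these libraries. Rrm1 (44.4%), Prim1 (44.3%) and Pole2 (44.7%) differed by -0.17, -0.24 and -0.071, and Rpa3 (40.4%) by 0.11. Across the 46 genes, GC content and that difference of the 2 libraries correlated at 0.49 (Pearson's r across genes, which share the 6 libraries and are not independent), against 0.54 across 9076 tested genes with a log2 CPM above 3. The part of GC content in the levels of these genes was not tested.

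Without the 2 libraries, leaving 2 samples in each group, 0 of the 46 genes passed the adjusted threshold. At an unadjusted p under 0.05 by edgeR, Pola1 (log2 fold change -0.35, SE 0.13), Tyms and Rrm2 were lower, and Mcm3 (0.23, SE 0.075), Pold2 (0.30, SE 0.094) and Fen1 (0.98, SE 0.36) were higher. These are 3 of 46 in each direction, against 3.63% of all tested genes lower and 2.9% higher in that fit. For Fen1, this fit left out TCR alone replicate 3, where Fen1-201 and Fen1-204 together held 5656 counts. It kept TCR+DMGV replicate 3, where they held 5107. Fen1-202 and Fen1-203 together held 89.2 and 69.3 CPM in TCR alone replicates 1 and 2. In TCR+DMGV replicates 2 and 3 they held 95.1 and 89.1 CPM. Orc2 and Rfc4 then stood at -0.11 (SE 0.085) and -0.11 (SE 0.13). The groups, now of 2 samples each, were separate for 14 genes lower and 11 higher, against 19.1% and 19.6% of all tested genes.

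Fen1, the nuclease that trims the flaps of lagging-strand fragments, varied most. It had 89.9, 70.1 and 239.9 CPM in TCR alone and 94.0, 96.1 and 218.0 CPM in TCR+DMGV, so 1 sample of each group stood far above the others and the log2 fold change of 0.029 carried an SE of 0.52. The excess lay on 2 of its 4 annotated transcripts. Fen1-201 and Fen1-204 together held 25, 33 and 5656 counts in TCR alone and 37, 44 and 5107 counts in TCR+DMGV. Fen1-202 and Fen1-203 together held 89.2, 69.3 and 103.2 CPM in TCR alone and 93.1, 95.1 and 89.1 CPM in TCR+DMGV, a range shared by all samples. The gene overlaps the antisense gene Gm10143, with 7249 to 9237 counts, and Tmem258 on the opposite strand, with 942 to 1513 counts. Reads of the 2 strands cannot be told apart unless counting used strand. The part of this overlap in the Fen1 counts was not tested, and those counts are uncertain.

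Such shifts between annotated transcripts were seen for other genes as well. In 13 of the 46 genes, the share of at least 1 transcript ranged over more than 15 percentage points across the 6 samples. Ung-202 held 3916 counts in TCR+DMGV replicate 2 and 670 to 842 counts elsewhere, and that sample had the highest Ung level, 190.6 CPM against 130.6 to 147.8 CPM. In Cad the shift left the gene's total in place, with Cad-211 at 21385 counts in TCR+DMGV replicate 1, where Cad-203 was at 0, and Cad-203 at 15032 to 19824 counts in the other 5 samples. Lig1-209, a transcript without a coding frame in the annotation, held 3905 counts in TCR+DMGV replicate 1 and 0 in every other sample. Cdc6-201 took from 23.3% to 85.1% of the Cdc6 counts and Cdt1-201 from 37.0% to 92.6% of those of Cdt1. By contrast, Rrm2-201 took 99.0% to 99.4% of the Rrm2 counts, and the main transcripts of Tyms and Tk1 took 73.5% to 81.6% and 74.0% to 85.2%.

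**Figure D5:**
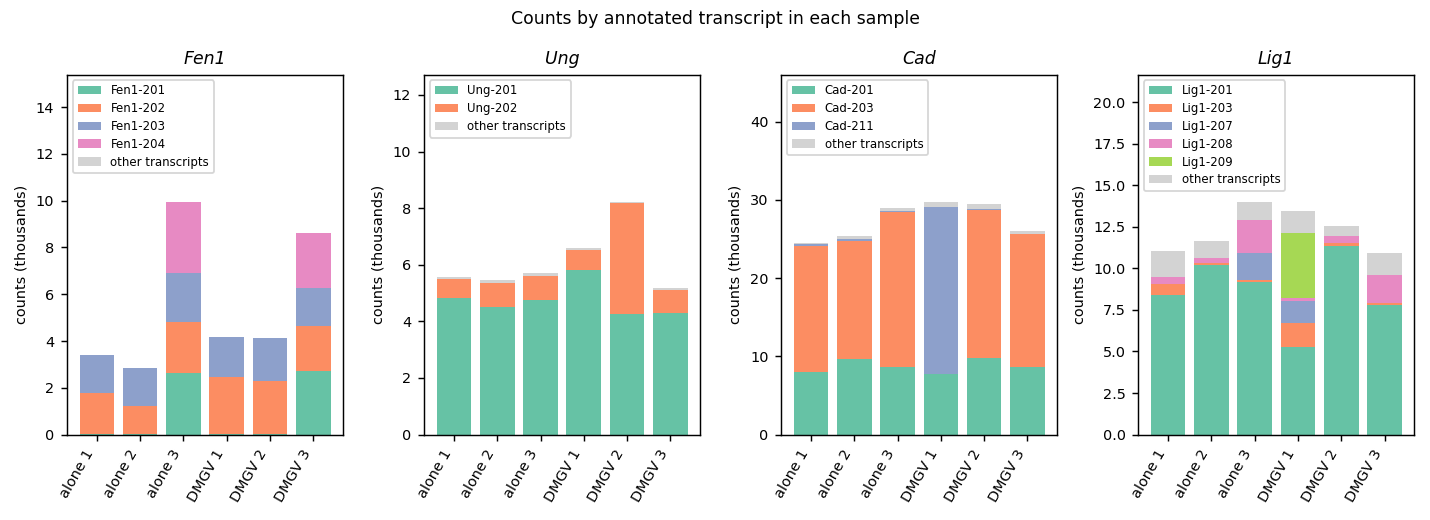
Counts assigned to each annotated transcript of Fen1, Ung, Cad and Lig1 in each sample (stacked bars, counts on an axis from 0), with transcripts that never exceed 10% of the gene's counts in grey. Fen1-201 and Fen1-204 are tall only in TCR alone 3 and TCR+DMGV 3, Ung-202 is tall in TCR+DMGV 2, and Cad-211 and Lig1-209 are tall in TCR+DMGV 1.

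The fold changes of genes with and without the E2F-type letters lay close together. Their median was -0.029 on the log2 scale in the 13 genes with a match, 8 of them below 0. It was -0.045 in the 25 genes with a promoter and no match, 15 of them below 0. Genes were split by the exact letters only, so these medians do not compare genes driven by E2F with others.

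Genes of neighbouring processes were read from the same fit. Of 36 other replication factors, 23 were lower and 13 higher, with a median log2 fold change of -0.053, and 0 passed the adjusted threshold. The smallest p was that of Dna2, a nuclease that cuts long flaps, with 62.8, 68.9 and 62.4 CPM in TCR alone and 52.2, 59.8 and 50.6 CPM in TCR+DMGV (log2 fold change -0.26, SE 0.099). Of 25 other genes of pyrimidine nucleotide use, 23 were tested, Cda and Dpyd being too low. Of these, 12 were higher and 11 lower, with a median of 0.029. Dctd, the deaminase that turns dCMP into the dUMP used by thymidylate synthase, had 32.1, 31.7 and 35.2 CPM against 51.2, 34.1 and 57.0 CPM (0.52, SE 0.19, edgeR unadjusted p = 0.025), with TCR+DMGV replicate 2 inside the range of TCR alone.

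Of 25 genes of G1/S control, 20 were lower and 5 higher (median -0.10). Ccna2, cyclin A2, had 191.6, 166.9 and 140.6 CPM in TCR alone and 125.7, 134.9 and 123.6 CPM in TCR+DMGV (-0.38, SE 0.12). Of 20 mitosis genes, 20 were lower, with a median of -0.29 against -0.027 for the 46 replication and pyrimidine genes. Mki67, the proliferation antigen, had 508.8, 442.7 and 358.3 CPM against 296.7, 321.5 and 318.2 CPM (-0.48, SE 0.13). At an unadjusted p under 0.05, 7 mitosis genes, 1 gene of G1/S control and 2 other replication factors were lower, and 3 other pyrimidine nucleotide genes were higher, against 1.56% lower and 1.63% higher of all tested genes. None of these genes passed the adjusted threshold, with an adjusted p of 0.999 for each by edgeR, and the difference between the lists was not tested. The lists were chosen with earlier results of these data known, so their counts are a description only.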

How the data were processed

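Libraries of polyadenylated RNA from 6 samples (3 TCR alone, 3 TCR+DMGV, grouped by the sample labels) were sequenced on an Illumina instrument. The authors filtered reads with SOAPnuke, mapped them with HISAT2 2.0.4 and computed expression with StringTie. The submitters' processing notes name the build mm9, whereas 99.7% of the gene identifiers, without version, are in GENCODE M21 (GRCm38), from which symbols, gene coordinates and GC content were taken. The deposited counts, given for genes and for transcripts, are whole numbers without normalization, and the step that made them and its strand setting are not given in the sources used here. The deposited FPKM values are scaled by the authors to gene length and library total, and the transcript FPKM values were not used. Promoter sequences are RefSeq's (GRCm38.p6).

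Gene counts were tested with edgeR 4.0.16 in R 4.3.3 (TMM scaling, default expression filter, quasi-likelihood test, two-sided, Benjamini-Hochberg adjustment over 14786 genes, threshold 0.05). The SE is the absolute log2 fold change over the square root of F. CPM were TMM-scaled, and log2 CPM for the principal components and deviations used a prior count of 2. Values with a pseudocount (log2(FPKM + 1), log2(FPKM + 0.1)) were tested with the trend test of limma 3.58.1, and DESeq2 1.42.0 was an alternative. The fit was also run on simulated counts. These had independent samples, the same dispersion for every gene and no libraries that stood apart, so they do not test it for such libraries. Tables were handled in pandas 2.3.3 (Python 3.11.15) and drawn with matplotlib 3.10.9. The members and lists were chosen with earlier results of these data known. Genes given sample by sample were those at an unadjusted p under 0.05, those without overlap, the smallest p of each role or list, and the MCM, pyrimidine synthesis, reductase, thymidylate and clamp genes. Others so given (Pola1, Orc2, Rfc4, Fen1) were chosen after their spread was seen, as were the transcripts.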

Additional observations from a re-analysis of the deposited data

How the results depend on the processing

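The 15 alternatives were DESeq2, RLE size factors, library size alone, all genes with a count, summed transcript counts, log2(FPKM + 1), log2(FPKM + 0.1), the replicate number as a block, each of the 6 samples left out, and the 2 libraries that stood apart left out. In each of them 0 of the 46 genes passed the adjusted threshold, and 21 of the 46 kept their sign throughout. Of 375 values of the 25 named genes, 360 kept their direction and 15 reversed. The named genes were chosen in part by their p or separation in these same libraries, which the alternatives reuse. The count is therefore a description and adds no support, and no such share over all tested genes is given. Genes lower in every TCR+DMGV sample numbered 5 with DESeq2 scaling and 6 with RLE size factors, library size alone or FPKM, and those higher numbered 0 with library size alone, log2(FPKM + 1) or log2(FPKM + 0.1). With the replicate block, 0 genes were lower at an unadjusted p under 0.05 (edgeR's unadjusted p was 0.056 for Rrm2 and 0.088 for Tyms). Same-numbered samples did not deviate together (correlations of -0.15, 0.12 and -0.15). The deviations also followed the 2 libraries that stood apart, which correlated at 0.31. They therefore cannot show whether same-numbered samples shared a mouse or a day. The labels state no pairing, and the main fit used none. Without the 2 libraries apart, 14 were lower and 11 higher in every sample, against 19.1% and 19.6% of all tested genes. In that fit 3 were lower and 3 higher at an unadjusted p under 0.05, Fen1 among the higher. Over all genes, 972 of 14888 passed that threshold in either direction, against 471 of 14786 with all samples. Mcm7 stood at 0.027 and Ctps at -0.0081 without the 2 libraries. With 1 sample left out in turn, the median ran from -0.077 to -0.00092, genes lower in every sample from 7 to 13 and higher from 1 to 10, and genes at an unadjusted p under 0.05 from 0 to 2 lower and from 0 to 1 higher. In the same fits the log2 fold change ran from -0.015 to 0.10 for Mcm2, -0.0072 to 0.13 for Mcm5, -0.030 to 0.036 for Mcm6, -0.062 to 0.035 for Mcm7, -0.12 to 0.059 for Pcna, -0.12 to 0.013 for Lig1, -0.011 to 0.084 for Cad, -0.042 to 0.13 for Dhodh and -0.026 to 0.11 for Ctps. The cause of these shifts was not tested. The lowest count of any of the 46 genes in a sample was 729.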
